A study of Mus musculus with 17 samples.

Results

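The cells described here are the neutrophils of mouse skin. A barcode counted as a neutrophil when it carried at least 200 genes and at most 20% of UMIs from mt- genes, at least 20 UMIs of S100a8 and S100a9 together, at least 1 UMI of Csf3r, Cxcr2 or Retnlg, and at most 1 UMI of C1qa, C1qb and C1qc together. UMIs are the molecules counted by 10x 3′ sequencing. This rule found 1759 neutrophils among 30085 kept skin cells (31972 skin barcodes and 107534 barcodes in all 17 libraries). The same rule found 1496 neutrophils in the kidney libraries of the series. S100a8 and S100a9, which encode the subunits of calprotectin, Csf3r, the G-CSF receptor, Cxcr2, a chemokine receptor, and Retnlg chose the cells, so their levels are only a description: over the 7 libraries with at least 10 neutrophils S100a8 ranged from 11212 to 43539 CPM with a median of 17300.5 CPM (UMIs per 1000000 UMIs), S100a9 from 20578 to 60538 CPM with a median of 33312 CPM, Csf3r from 975 to 1919 CPM with a median of 1180.4 CPM, Cxcr2 from 312 to 867 CPM with a median of 547 CPM and Retnlg from 389 to 6331 CPM with a median of 1915 CPM.

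Neutrophils are short-lived granulocytes that mature in the bone marrow, fill their granules in stages during that maturation and enter inflamed tissue along gradients of chemokines such as Cxcl1 and Cxcl2, which bind Cxcr2. In the tissue they release granule proteins and reactive oxygen, and they make chemokines and interleukin-1 that recruit further cells. Many of these inflammatory genes are switched on through NF-kappa B, whose own targets include inhibitors such as Nfkbia and Tnfaip3.

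The study asked whether added SARA (Smad anchor for receptor activation, encoded by ZFYVE9), first described as an adaptor of the TGF-beta receptor, affects how pericytes turn into myofibroblasts in fibrotic skin, and the series also holds kidney libraries. All mice carried PDGFRb-Cre and the Z/EG reporter and were 8 weeks old at the start of the injections. SARATg mice also carried human ZFYVE9 cDNA in the Rosa26 locus behind a lox-flanked stop and under the CAG promoter, and SARAWT mice did not. GFP+ cells were sorted before sequencing.

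Skin was sampled after subcutaneous PBS or 20 mg/kg bleomycin, injected 3 times per week for 2 weeks, in 3 SARAWT PBS, 3 SARAWT bleomycin, 1 SARATg PBS and 1 SARATg bleomycin library. Kidney, used here only for comparison, was sampled after intraperitoneal vehicle or 5 mg/kg aristolochic acid (AA), injected 3 times per week for 3 weeks, in 9 libraries. These were 3 SARAWT vehicle, 3 SARAWT AA, 2 SARATg vehicle and 1 SARATg AA library, and all 9 entered the comparison of skin with kidney. For skin, the labels give this schedule, while the study's methods give daily injections, with skin taken a week after the last one. The Cre is also active in leukocytes, and the share of neutrophils is a share of sorted cells. Each SARATg condition of skin was a single library. Whether a library came from 1 mouse or from several was not given in the sources used here, so p-values refer to libraries, not to mice. In the tests across genes the spread between libraries was pooled over genes, so a p-value does not measure the spread of that gene alone. For SARATg against SARAWT and for neutrophils against monocytes the pooling was complete, so a gene's own spread carried no weight. Adjusted p-values of these tests therefore cannot be set beside those of bleomycin against PBS.

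All 18 further neutrophil markers that the rule did not use, among them Ly6g, Mmp9, Il1r2, Clec4d and Trem1, stood above the other kept cells in the median over libraries, and their summed level was 8858 to 22152 CPM against 189 to 1098 CPM in the other cells. Summed monocyte markers stood at 113 to 836 CPM against 1119 to 2114 CPM, and none of the 8 monocyte markers was above the other cells. Of the neutrophils, 122 had 20 to 29 UMIs of S100a8 and S100a9, just inside the threshold, and 143 further cells that met the other criteria had 10 to 19, just outside it. Some neutrophils also carried markers of another lineage: 134 carried at least 2 monocyte markers, 92 at least 2 stromal, 79 at least 2 macrophage, 78 at least 2 dendritic, 42 at least 2 keratinocyte and 27 at least 2 T or NK cell markers. Without every cell that carried at least 2 markers of any other lineage, 1449 neutrophils remained, and the main results are given with and without the 310 others. The lineages counted were monocyte, macrophage, eosinophil, mast cell, T and NK cell, B cell, dendritic cell, keratinocyte, stromal, endothelial and erythroid. Muscle and kidney tubule cells were not among them, so cells with RNA of these were not left out on that account.

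The libraries differed in size and processing. They held 3355217 to 69765525 UMIs, and the neutrophils of a library 17852 to 3225312 UMIs from 7 to 867 cells. The library labelled SARAWT PBS 2 had the lowest depth and only 7 neutrophils, so it entered no test across genes. A neutrophil had a median of 2119 to 3119.5 UMIs, against 1260.5 to 11322 in the other cells. SARAWT PBS 1 and 2 and SARAWT bleomycin 1 and 2 were counted on a longer gene list that holds a human ZFYVE9 entry, and the other 4 skin libraries on a shorter one without it. The 4 libraries of the longer list had Xist UMIs and no Ddx3y UMI in their neutrophils and the other 4 the reverse, so gene list and sex-linked expression cannot be told apart. Barcodes that also occurred in another library made up 0.594% to 55.5% of a library, the most in SARAWT PBS 2, and 11 neutrophils had such a barcode.

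Signal of the targeted gene was found in libraries labelled SARAWT. Mouse Zfyve9 in SARAWT PBS 3 and the human entry in SARAWT PBS 1 were high, and these are the 2 called here libraries that go against their label, while human ZFYVE9 UMIs were found at lower levels in the other 3 SARAWT libraries whose gene list holds the entry. Mouse Zfyve9 in neutrophils stood at 963 CPM in SARATg PBS 1 and 941 CPM in SARATg bleomycin 1. In the library labelled SARAWT PBS 3 it stood at 2289 CPM (3006 UMIs), above both. The other SARAWT libraries held 18.5 CPM (1 UMI) in the library labelled SARAWT PBS 1, 12.1 CPM in SARAWT bleomycin 3 and no UMI in SARAWT PBS 2 and SARAWT bleomycin 1 and 2. A count of 0 there allows up to 169, 15.5 and 85.0 CPM, for counting error only. On the shorter list reads of human and mouse ZFYVE9 cannot be told apart, since it holds no human entry.

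Where the human entry was counted, it was highest in the library labelled SARAWT PBS 1, with 277 UMIs in 20 neutrophils, or 5058 CPM. The neutrophils of SARAWT PBS 2, SARAWT bleomycin 1 and SARAWT bleomycin 2 held 11, 74 and 11 UMIs of it, or 616, 379.5 and 309.8 CPM. In the other kept cells of the same 4 libraries the human entry stood at 831, 185, 84.9 and 112 CPM, again highest in the library labelled SARAWT PBS 1. Setd5, a chromatin regulator, was highest in the libraries labelled SARAWT PBS 1 and 3 and the SARATg libraries. It lies next to Gt(ROSA)26Sor, the gene of the Rosa26 locus. The lowest coordinate of Setd5 is 18 bases past the highest of that gene, whatever their strands (GRCm38.p6, chr6:113077262-113153432). Setd5 stood at 111 and 309 CPM in the libraries labelled SARAWT PBS 1 and 3 and at 123 CPM in SARATg PBS 1 and 135 CPM in SARATg bleomycin 1. It stood at 0 CPM in SARAWT PBS 2 and at 15.5, 28.3 and 36.0 CPM in SARAWT bleomycin 1, 2 and 3. Both PBS libraries that enter the comparison of bleomycin with PBS below are those that go against their label, so treatment and ZFYVE9 signal cannot be told apart in it.

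**Figure D1:**
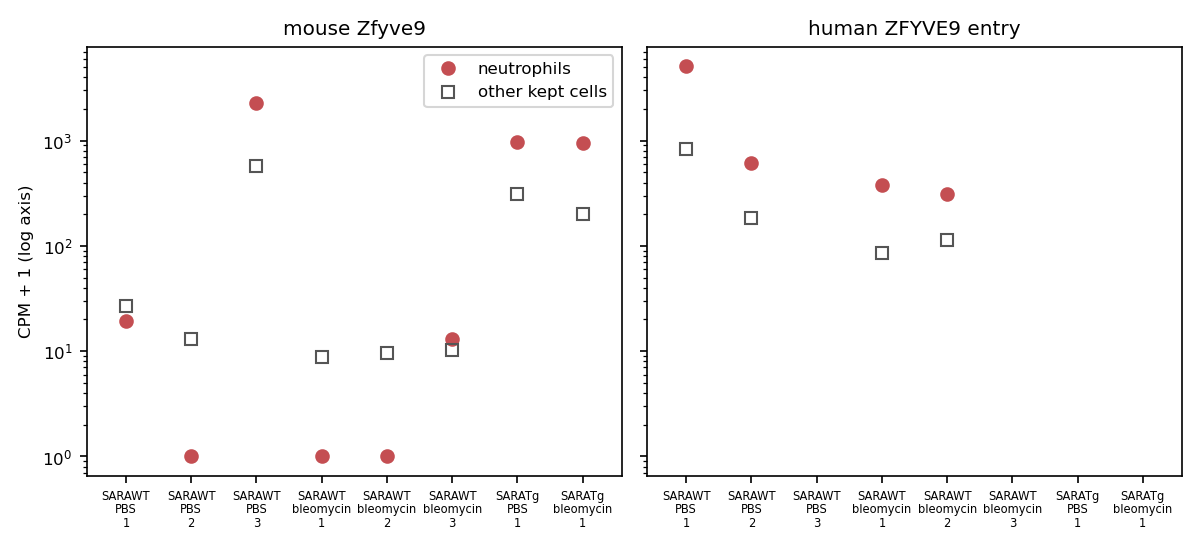
Level of mouse Zfyve9 (left) and of the human ZFYVE9 entry (right, only the 4 libraries counted on the longer gene list) in CPM + 1 on a log axis, for each skin library, with neutrophils as filled points and the other kept cells as open squares. Zfyve9 was highest in the library labelled SARAWT PBS 3 (2289 CPM in neutrophils) and the human entry in the library labelled SARAWT PBS 1 (5058 CPM).

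Fth1, Cxcl2 and Il1b were among the most abundant messages of skin neutrophils. A 3′ UMI counts a transcript once whatever its length, so levels of different genes are set side by side on this scale. Over the 7 libraries with at least 10 neutrophils, Fth1, the ferritin heavy chain, ranged from 16174 to 60968 CPM with a median of 40464 CPM, against 4189 to 11466 CPM in the other cells of the same libraries. Cxcl2, a neutrophil attractant, ranged from 2832 to 27324 CPM with a median of 11959.9 CPM, and Il1b, interleukin-1 beta, from 4729.8 to 14095 CPM with a median of 10610.5 CPM. The other cells held 780.0 to 3139 CPM of Cxcl2 and 1129.6 to 2767 CPM of Il1b, and in each of the 7 libraries the neutrophils were above the other cells for all 3 genes. The 15 most abundant genes outside the rule, mt- genes and ribosomal protein genes were Fth1, Malat1, Gm42418, Ftl1, Cxcl2, Tmsb4x, Srgn, Il1b, Actb, Junb, Nfkbia, Neat1, Tpt1, Actg1 and Cd14. These are descriptions, since the same cells were chosen from these libraries.

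Receptors for microbial and damage signals were also abundant. Clec4d, a C-type lectin receptor, had a median of 3414 CPM, Cd14, the co-receptor for endotoxin, 4053 CPM, Nlrp3, the inflammasome sensor, 2069 CPM, Clec4e 1868 CPM and Trem1, which amplifies such signals, 1372 CPM. Hcar2, a receptor for niacin and ketone bodies, stood at 1663 CPM, Acod1, which makes itaconate, at 1332 CPM and Mcl1, on which neutrophil survival depends, at 2900.4 CPM. Several granule genes, which are transcribed while neutrophils mature, were low. Mpo, the myeloperoxidase of primary granules, had a median of 0.762 CPM, and Ltf, Camp and Ngp of secondary granules 6.09, 5.33 and 4.03 CPM. The exception was Ngp in the library labelled SARAWT PBS 1, with 1292 CPM. Others were higher, with medians of 493 CPM for Mmp9, the gelatinase of tertiary granules, 578 CPM for the siderophore-binding Lcn2 of secondary granules and 855 CPM for lysozyme.

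The share of neutrophils varied widely between libraries, and a difference between bleomycin and PBS was not detectable over 3 libraries each. With exact 95% binomial intervals, neutrophils made up 0.491% (0.300% to 0.757%), 0.896% (0.361% to 1.84%) and 6.60% (5.90% to 7.35%) of kept cells in the libraries labelled SARAWT PBS 1, 2 and 3. They made up 2.69% (2.05% to 3.47%), 0.554% (0.286% to 0.965%) and 13.2% (12.4% to 14.1%) in SARAWT bleomycin 1, 2 and 3. The groups overlapped, and the third library of each stood far above the other two. SARATg PBS 1 held 0.549% (0.355% to 0.809%) and SARATg bleomycin 1 8.98% (8.22% to 9.80%). In the libraries labelled SARAWT, 2 of the 3 PBS libraries going against that label, the mean was 5.5% ± 6.79 (SD, n = 3) after bleomycin and 2.66% ± 3.42 (SD, n = 3) after PBS, a difference of 2.83 percentage points (exact permutation test over libraries, two-sided p = 0.6, where 3 against 3 cannot go below 0.1). Without cells that carried markers of another lineage it was 2.45 percentage points (exact permutation p = 0.7). Without SARAWT bleomycin 3 the difference was -1.04 percentage points, so its direction rests on that library. The intervals cover counting error only, and on the longer gene list alone bleomycin held 0.929 percentage points more (exact permutation p = 0.667, 2 libraries against 2).

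**Figure D2:**
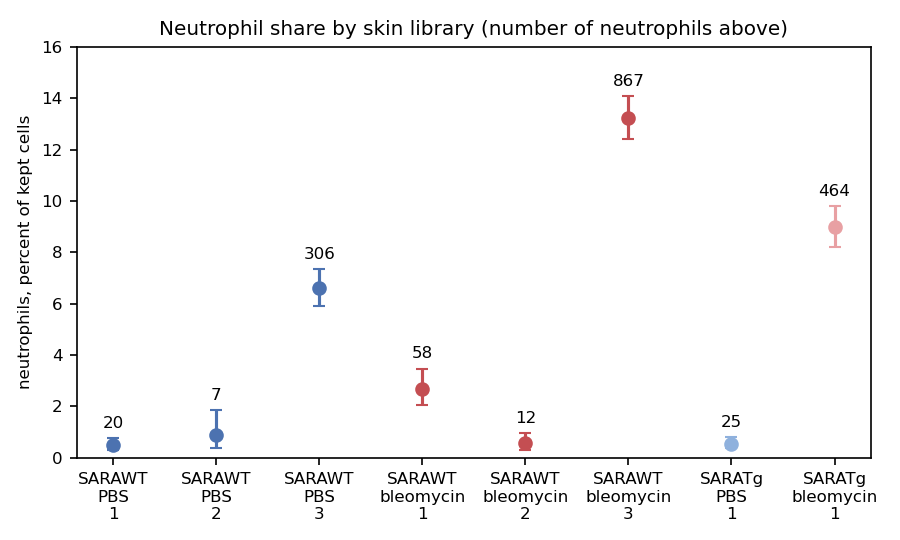
Neutrophils as a percent of kept cells in each of the 8 skin libraries, with exact 95% binomial intervals as bars. SARAWT bleomycin 3 (13.2%), SARATg bleomycin 1 (8.98%) and the library labelled SARAWT PBS 3 (6.60%) stand above the other 5, which lie between 0.491% and 2.69%.

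The comparison of bleomycin with PBS in SARAWT skin called no gene in neutrophils. Cxcl1, Cxcl2 and Il1a had higher values in each of the 3 bleomycin libraries than in each of the 3 labelled PBS, without passing the test. Of 2562 genes tested with edgeR's quasi-likelihood test on the UMIs summed per library (2 PBS against 3 bleomycin libraries), 0 passed an adjusted p of 0.05 (0%), 52 had an unadjusted p under 0.05, 35 of them higher after bleomycin, and DESeq2 called 0 as well. Replicates 1 and 2 of both treatments had the longer gene list and Cell Ranger 4.0.0, and replicate 3 of both the shorter list. With the gene list as a term, a fit added after seeing the data, 0 genes were called and 70 had an unadjusted p under 0.05, with Cxcl1 at a log2 fold change of 1.92 (adjusted p = 0.417), Cxcl2 at 1.01 and Il1a at 2.24 (adjusted p = 0.999 for both). Within the longer list alone, 1 PBS against 2 bleomycin libraries with 1 residual degree of freedom, 30 of 1114 genes were called, 25 of them higher, and the shorter list held 1 library a treatment and allowed no test. Cxcl1, a ligand of Cxcr2, stood at 461, 508 and 799.6 CPM in the libraries labelled SARAWT PBS 1, 2 and 3 and 2415, 2494 and 2034 CPM in SARAWT bleomycin 1, 2 and 3. The bleomycin values were all above the PBS values, with a log2 fold change of 1.85 (SE 0.43, adjusted p = 1). Cxcl2 stood at 11959.9, 4684 and 11004 CPM in the libraries labelled SARAWT PBS 1, 2 and 3 and 23613, 27324 and 19635 CPM in SARAWT bleomycin 1, 2 and 3. These groups did not overlap either, with a log2 fold change of 1.06 (SE 0.31, adjusted p = 1). Il1a, which encodes interleukin-1 alpha, stood at 92.3, 0 and 76.2 CPM in the libraries labelled SARAWT PBS 1, 2 and 3 and 186, 1105 and 303 CPM in SARAWT bleomycin 1, 2 and 3. Its fitted log2 fold change was 2.55 (SE 0.78, adjusted p = 1), with the largest SE of the 3 genes.

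The other genes with the lowest p included genes on both sides. Wfdc21, which encodes a secreted WAP-domain protein, stood at 1181, 959 and 771 CPM in the libraries labelled SARAWT PBS 1, 2 and 3 and 222, 170.1 and 257 CPM in SARAWT bleomycin 1, 2 and 3. All 3 bleomycin values were below the PBS values, at a log2 fold change of -2.07 (SE 0.41, adjusted p = 0.696). Setd5 (log2 -2.98, adjusted p = 0.696), described above beside the transgene, and Tpm3-rs7 (log2 -4.20, adjusted p = 0.696), whose counts are uncertain because it shares sequence with Tpm3, also had negative fold changes. Igfbp7 (log2 2.29, adjusted p = 1), Gm34084 (log2 4.62, adjusted p = 1) and Dusp2 (log2 1.43, adjusted p = 1), a phosphatase that limits MAP kinase signalling, had positive fold changes. Over the 2 PBS and 3 bleomycin libraries of the fit, which leave out the library labelled SARAWT PBS 2, groups that did not overlap were found for 422 of the 2562 genes.

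By list, 6 of 7 chemokine genes tested had a positive log2 fold change (median 1.06), as had 9 of 10 cytokine and growth factor genes (median 0.47), while 12 of 13 secondary and tertiary granule genes had a negative one (median -0.71). The median over all 2562 genes was 0.03, and none of the 20 lists held a called gene. Among the granule genes Lcn2 stood at -1.33 (adjusted p = 1) and Mmp8, neutrophil collagenase, at -1.99 (adjusted p = 1), and among the cytokines Il23a at 2.07 (adjusted p = 1) and Tnf at 1.2 (adjusted p = 1). Of 9 TGF-beta pathway genes 5 were positive (median 0.20), with Skil, a Smad repressor that TGF-beta itself induces, at 0.84 (adjusted p = 1).

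Without cells that carried markers of any other lineage, the same fit of the libraries labelled SARAWT called 0 of 3365 genes, with 85 at an unadjusted p under 0.05, and with all cells the fit of all skin libraries called 2 of 2963, both lower. Under both changes together, which kept 6 libraries, 2 of SARAWT PBS and 2 of SARAWT bleomycin, 11 of 3887 genes were called higher (0.283%) and 9 lower (0.232%) after bleomycin, so these calls rest on that combination. Cxcl1 was called higher in it with a log2 fold change of 2.80 (adjusted p = 3.48e-08), Il1a with 1.86 (adjusted p = 0.0208), Il23a, a subunit of interleukin-23, with 1.95 (adjusted p = 0.0428), the early-response gene Ier3 with 1.5 (adjusted p = 0.00565) and the chemokine receptor-like gene Ccrl2 with 1.39 (adjusted p = 0.0211). Wfdc21 was called lower with a log2 fold change of -1.62 (adjusted p = 0.00134), the cystine transporter gene Slc7a11 with -1.25 (adjusted p = 0.0428) and Ngp, a secondary granule gene, with -3.53 (adjusted p = 7.72e-05). Ngp stood at 1292 and 28.9 CPM in these cells of the libraries labelled SARAWT PBS 1 and 3 and at 0 and 5.30 CPM in SARAWT bleomycin 1 and 3, so the high value was that of 1 library of 20 neutrophils. Zfyve9 (log2 -3.87, adjusted p = 0.00565) and Setd5 (log2 -2.46, adjusted p = 0.00215) were among the genes called lower. The human entry of the longer list was not in this fit, and treatment and ZFYVE9 signal cannot be told apart in it. Retnlg, called lower too, took part in the rule. In these cells Cxcl1 stood at 461 and 488 CPM in the libraries labelled SARAWT PBS 1 and 3 and at 3252 and 2711 CPM in SARAWT bleomycin 1 and 3. Without the library labelled SARAWT PBS 1 the fit of the SARAWT groups alone, with all neutrophils, called 81 genes, 18 of them higher, and leaving out the one labelled SARAWT PBS 3 gave 1 call, which was lower.

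The neutrophils of SARATg bleomycin 1, the one library of that group, held less of a set of chemokine and cytokine messages than those of the SARAWT bleomycin libraries, and genotype cannot be told apart from that library. SARAWT bleomycin 1 and 2 held human ZFYVE9 UMIs too, at 379.5 and 309.8 CPM. Il1a, Il23a, Cxcl1, Cxcl2, Cxcl3, Ccl3, Ccl5 and Tnf were called lower in it than in the SARAWT bleomycin group, although SARAWT bleomycin 2 had no UMI of Cxcl3 or Ccl5. Of these, Il1a, Il23a, Cxcl1 and Cxcl3 were still called without cells that carried markers of another lineage. The 10 largest changes in the other direction were those of keratinocyte genes. The fit used 7 libraries with a term for the gene list and 2 residual degrees of freedom. Without that term, and also in DESeq2, most of the genes called lower no longer passed, so the lower calls depend on the fit. As SARATg had 1 library a condition, the spread came from the SARAWT libraries, pooled over genes, and not from replicates of SARATg. Of 4112 genes, 89 passed an adjusted p of 0.05 (2.16%), 74 of them higher (1.8%) and 15 lower (0.365%).

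Cxcl1 stood at 86.9 CPM in SARATg PBS 1 and 371 CPM in SARATg bleomycin 1, below each SARAWT library of the same treatment. With the SARAWT values given above, its log2 fold change after bleomycin was -2.91 (SE 0.70, adjusted p = 0.00191). Cxcl2 stood at 2832 CPM in SARATg PBS 1 and 3672 CPM in SARATg bleomycin 1, with a log2 fold change of -2.65 (SE 0.63, adjusted p = 0.00156). Il1a stood at 0 CPM in SARATg PBS 1 and 10.5 CPM in SARATg bleomycin 1. Its SARATg bleomycin value was below every SARAWT bleomycin value, at a log2 fold change of -5.08 (SE 0.80, adjusted p = 2.82e-08). Il23a stood at 0, 0 and 96.7 CPM in the libraries labelled SARAWT PBS 1, 2 and 3 and 170.3, 652 and 211 CPM in SARAWT bleomycin 1, 2 and 3. In SARATg it stood at 21.7 CPM in SARATg PBS 1 and 19.0 CPM in SARATg bleomycin 1, with a log2 fold change of -4.10 (SE 0.81, adjusted p = 3.38e-05).

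Ccl3, a chemokine for monocytes and neutrophils, stood at 1163, 1016 and 1723 CPM in the libraries labelled SARAWT PBS 1, 2 and 3 and 1280.0, 7143 and 1643 CPM in SARAWT bleomycin 1, 2 and 3. In SARATg it stood at 420.1 CPM in SARATg PBS 1 and 390.1 CPM in SARATg bleomycin 1, and the log2 fold change was -2.81 (SE 0.69, adjusted p = 0.00339). SARAWT bleomycin 2, with 12 neutrophils, was far above the other 2 bleomycin libraries. Tnf stood at 351, 0 and 346 CPM in the libraries labelled SARAWT PBS 1, 2 and 3 and 413, 1105 and 913 CPM in SARAWT bleomycin 1, 2 and 3. It stood at 261 CPM in SARATg PBS 1 and 199 CPM in SARATg bleomycin 1, below all 3 bleomycin libraries, with a log2 fold change of -2.24 (SE 0.66, adjusted p = 0.032). Tnfaip3, which encodes A20, an inhibitor of NF-kappa B signalling, stood at 295, 56.4 and 704 CPM in the libraries labelled SARAWT PBS 1, 2 and 3 and 795, 879 and 857 CPM in SARAWT bleomycin 1, 2 and 3. With 304 CPM in SARATg PBS 1 and 255 CPM in SARATg bleomycin 1, it had a log2 fold change of -2.23 (SE 0.68, adjusted p = 0.0477). Its 3 SARAWT bleomycin values lay close together, and both SARATg values were below them.

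Further genes were called lower too. Spp1, which encodes osteopontin, had a log2 fold change of -2.62 (adjusted p = 0.00568), Slc7a11 of -2.34 (adjusted p = 0.0194), Ccl5 of -6.62 (adjusted p = 5.13e-08) and Cxcl3 of -3.03 (adjusted p = 0.0102). Dhx40, an RNA helicase gene, had 13.5 CPM in SARATg bleomycin 1 and 225 to 790.2 CPM in the other 7 libraries, SARATg PBS 1 being the lowest of these (log2 fold change -4.93, SE 0.77, adjusted p = 2.90e-08).

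By list, 5 of 11 chemokine genes were called lower (9 negative, median -1.91), 3 of 12 cytokine and growth factor genes (11 negative, median -0.71), 2 of 16 genes of tissue and tumour neutrophils (Spp1 and Ccl3, 14 negative, median -0.98) and 1 of 15 NF-kappa B feedback genes (Tnfaip3, 15 negative, median -0.98). Pattern recognition and inflammasome genes held 0 called of 13 (12 negative, median -0.89) and survival and apoptosis genes 0 of 14 (12 negative, median -1.01). The median over all genes tested was 0.01. In the secondary and tertiary granule list 1 of 17 genes was called, Ngp, higher at 3.32 (adjusted p = 5.36e-04), and in the TGF-beta list 1 of 10, Zfyve9, higher at 6.17 (adjusted p = 1.22e-11). Zfyve9 is the gene of the transgene, so its call says nothing of the pathway. Its value can include human reads on the shorter list, while the human entry of the longer list was not in the fit. The other 12 lists held no called gene.

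The 10 largest changes toward SARATg were those of Krt1, Sprr1a, Defb6, Krtdap, Sprr1b, Calm4, Dsc3, S100a14, Krt10 and Krt77, keratins and other genes of keratinocytes. Krt10 stood at 0, 0 and 12.9 CPM in the libraries labelled SARAWT PBS 1, 2 and 3 and 0, 0 and 3.72 CPM in SARAWT bleomycin 1, 2 and 3. In SARATg it stood at 4939.8 CPM in SARATg PBS 1 and 4249 CPM in SARATg bleomycin 1, and its log2 fold change was 10.01 (SE 0.98, adjusted p = 3.72e-21). The largest fitted value was that of Krt1 (log2 11.91, adjusted p = 8.70e-24), with Krtdap at 10.81 (adjusted p = 5.01e-21), Calm4 at 10.65 (adjusted p = 3.79e-19) and Krt77 at 9.93 (adjusted p = 7.19e-19). Sprr1a, Defb6, Sprr1b, Dsc3 and S100a14 had no UMI in any SARAWT bleomycin neutrophil, so against a floor of 3 counts over that group they were at least 480.4, 365, 275, 177 and 161-fold higher. The 7 keratinocyte markers summed to 12953 CPM in SARATg PBS 1 and 8497 CPM in SARATg bleomycin 1, and to at most 702 CPM in the other libraries. The filter on other lineages used these markers, Krt10 among them, so lower values after it are set by the filter. Without cells that carried markers of another lineage the sums were 81.5 and 55.6 CPM, and Krt10 stood at 27.2 and 17.9 CPM.

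Without those cells 17 genes were called, 5 higher (0.0996%) and 12 lower (0.239%) of 5019, and 10 of the 17 were among the 89. This fit had 6 libraries, since SARAWT bleomycin 2 kept 9 neutrophils, and 1 residual degree of freedom. Il1a (log2 -4.55, adjusted p = 2.66e-07), Cxcl1 (log2 -3.24, adjusted p = 8.30e-04), Il23a (log2 -3.25, adjusted p = 0.00171), Cxcl3 (log2 -2.61, adjusted p = 0.0351) and Dhx40 (log2 -5.78, adjusted p = 7.25e-11) were again called lower, joined by Thbs1, thrombospondin-1, which activates latent TGF-beta (log2 -2.89, adjusted p = 0.00357). The others called lower included genes of muscle (Tnnc2, Ankrd1, Des, Myl4 and Ankrd23). Cxcl2, Ccl3, Tnf and Tnfaip3 had log2 fold changes of -2.48, -2.06, -1.75 and -2.16 and adjusted p of 0.242, 0.178, 0.263 and 0.104. Spp1, Slc7a11, Ccl5 and Ngp were no longer called either, with log2 fold changes of -2.18, -2.08, -2.87 and 1.93 and adjusted p of 0.104, 0.206, 1.0 and 0.853, and Ccl5 stood at 6.98, 0 and 27.0 CPM in SARAWT bleomycin 1, 2 and 3 and 3.98 CPM in SARATg bleomycin 1. By list, 2 of 11 chemokine genes and 2 of 12 cytokine genes were then called lower, 0 of 15 in each of the tissue and tumour neutrophil and NF-kappa B feedback lists and 0 of 16 in the secondary and tertiary granule list, and of 13 TGF-beta genes Zfyve9 was higher and Thbs1 lower. Cxcl2 stood at 6021 CPM in SARATg bleomycin 1 and 5819.6 CPM in SARATg PBS 1 in these cells, against 28808, 30874 and 25631 CPM in SARAWT bleomycin 1, 2 and 3. In SARAWT PBS 2, with 7 neutrophils, it stood at 4684 CPM, below SARATg PBS 1. Without SARAWT bleomycin 3, the only SARAWT bleomycin library of the shorter list, 11 genes were called, 10 of them lower, and 7 of the 11 were among the 89: Il1a, Il23a, Cxcl1, Cxcl3, Ccl3, Dhx40 and Ngp. The 10 keratinocyte genes named above, Cxcl2 (adjusted p = 0.122), Spp1 (0.274), Slc7a11 (0.344), Tnf (1.0) and Tnfaip3 (0.175) no longer passed in that fit.

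**Figure D3:**
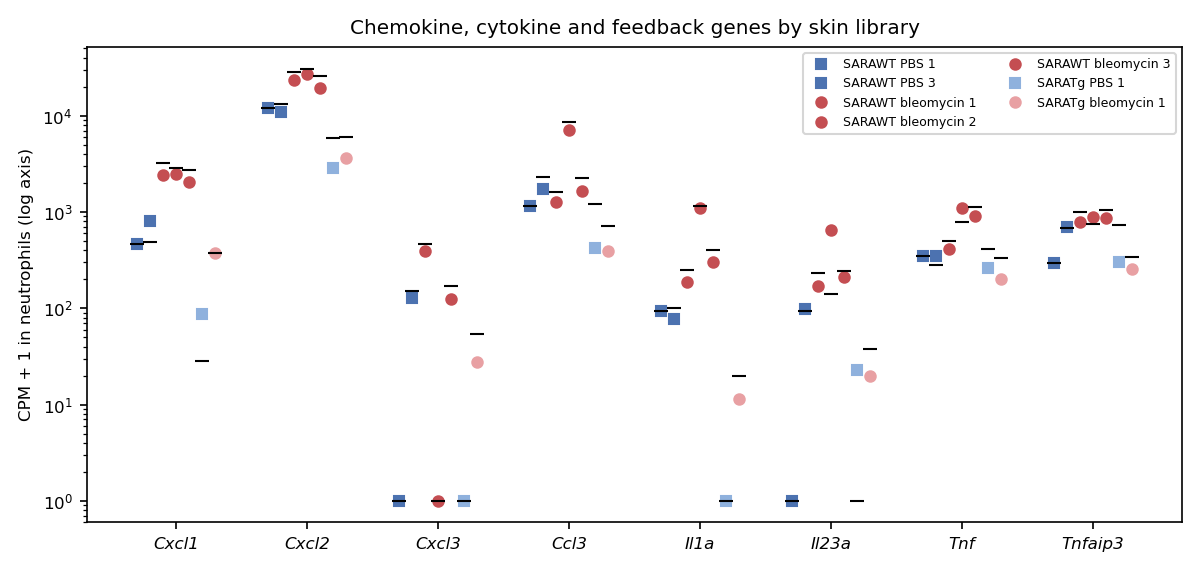
Level in neutrophils of Cxcl1, Cxcl2, Cxcl3, Ccl3, Il1a, Il23a, Tnf and Tnfaip3 in the 7 skin libraries with at least 10 neutrophils, as CPM + 1 on a log axis; each point is a library and black dashes mark its value without cells that carried markers of another lineage. SARATg bleomycin 1 lies below all 3 SARAWT bleomycin libraries for 7 of the genes, with Cxcl1 at 371 CPM against 2034 to 2494 CPM; for Cxcl3, SARAWT bleomycin 2 had no UMI.

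The change between PBS and bleomycin differed between neutrophils and monocytes of the same libraries for 48 genes, of which 1, Apoe, still passed without the library labelled SARAWT PBS 3. Csf3, which encodes G-CSF, Cxcl3 and Il1a had a more positive change in neutrophils than in monocytes, Il1a without passing the test once cells that carried markers of another lineage were left out, and stromal genes had a more negative one. Both PBS libraries of the fit are those that go against their label. The 1079 skin monocytes were kept cells outside the neutrophils with at least 1 UMI of Ly6c2, 5 of Lyz2 and 1 of Ccr2 or Csf1r and at most 1 of C1qa, C1qb and C1qc. The interaction of cell class and treatment passed an adjusted p of 0.05 in edgeR for 48 of 8808 genes (0.545%), 10 of them with a more positive change in neutrophils (0.114%) and 38 with a more negative one (0.431%). The fit used 5 libraries, with 2 labelled SARAWT PBS. On simulated data it missed most changes other than large ones, so a gene that was not called is not shown to respond alike in both classes.

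Csf3 stood at 0, 0 and 38.8 CPM in the libraries labelled SARAWT PBS 1, 2 and 3 and 196, 227 and 82.5 CPM in SARAWT bleomycin 1, 2 and 3. In monocytes it stood at 1.74, 0 and 116 CPM in the libraries labelled SARAWT PBS 1, 2 and 3 and 4.38, 24.0 and 52.3 CPM in SARAWT bleomycin 1, 2 and 3. The counted neutrophil values were higher in every bleomycin library than in every PBS library, those of monocytes were not, and the interaction was 4.06 (SE 0.91, adjusted p = 0.0026) on the log2 scale. In neutrophils a count of 0 allows up to 55.4 and 169 CPM in the libraries labelled SARAWT PBS 1 and 2. The latter is above the value of SARAWT bleomycin 3. The highest monocyte value was that of the library labelled SARAWT PBS 3, and without it the adjusted p was 0.901. Il1a in monocytes stood at 3.48, 0 and 47.2 CPM in the libraries labelled SARAWT PBS 1, 2 and 3 and 3.65, 14.3 and 46.1 CPM in SARAWT bleomycin 1, 2 and 3, with an interaction of 2.92 (SE 0.78, adjusted p = 0.039) against the neutrophil values given above. Cxcl3, a further ligand of Cxcr2, stood at 0, 0 and 126 CPM in the libraries labelled SARAWT PBS 1, 2 and 3 and 392, 0 and 124 CPM in SARAWT bleomycin 1, 2 and 3. In monocytes it stood at 0, 0 and 297 CPM in the libraries labelled SARAWT PBS 1, 2 and 3 and 1.46, 5.70 and 66.9 CPM in SARAWT bleomycin 1, 2 and 3, with an interaction of 4.03 (SE 0.89, adjusted p = 0.0021). For 2010005H15Rik, which stood at 0, 0 and 9.14 CPM in the libraries labelled SARAWT PBS 1, 2 and 3 and 41.3, 113 and 27.3 CPM in SARAWT bleomycin 1, 2 and 3, the interaction was 9.25 (SE 1.47, adjusted p = 8.08e-07). In monocytes it stood at 0, 0 and 31.3 CPM in the libraries labelled SARAWT PBS 1, 2 and 3 and 0, 0 and 0.237 CPM in SARAWT bleomycin 1, 2 and 3. For these genes too the highest monocyte value was that of the library labelled SARAWT PBS 3, and without it Cxcl3, Il1a and 2010005H15Rik had an adjusted p of 1. Cxcl1 had an interaction of 1.92 (SE 0.77, adjusted p = 0.697). By list, 1 of 11 chemokine genes (Cxcl3, median 1.21) and 1 of 16 cytokine genes (Il1a, median 0.45) were called, and the other 18 lists held none, with a median of -0.06 over all genes.

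Among called genes with a mean of at least 10 CPM and no overlap between groups, the 10 largest changes in the other direction were those of fibroblast and matrix genes: Gas1 -8.17 (adjusted p = 1.21e-04), Igfbp5 -7.88 (adjusted p = 5.04e-07), Dcn -7.84 (adjusted p = 4.05e-13), Lum -7.67 (adjusted p = 6.82e-06), Dpt -6.50 (adjusted p = 5.44e-04), Plpp3 -6.43 (adjusted p = 5.37e-04), Thbs2 -6.43 (adjusted p = 6.60e-05), Prrx1 -6.36 (adjusted p = 0.00148), Ctsk -6.17 (adjusted p = 4.32e-05) and Fbn1 -5.68 (adjusted p = 5.71e-04). Dcn, the small proteoglycan decorin, stood at 36.9, 0 and 685 CPM in the libraries labelled SARAWT PBS 1, 2 and 3 and 5.16, 28.3 and 10.9 CPM in SARAWT bleomycin 1, 2 and 3 in neutrophils. In neutrophils it was highest in the library labelled SARAWT PBS 3. In monocytes Dcn stood at 13.9, 0 and 9.29 CPM in the libraries labelled SARAWT PBS 1, 2 and 3. It stood higher in monocytes after bleomycin, at 87.6, 45.1 and 76.6 CPM in SARAWT bleomycin 1, 2 and 3. The filter on other lineages used the stromal markers, Dcn among them, so lower sums after it are set by the filter. Summed stromal markers in neutrophils stood at 5769 CPM in the library labelled SARAWT PBS 3 and 1761 CPM in SARAWT bleomycin 3, and at 62.9 and 61.6 CPM without cells that carried markers of another lineage. The fit without such cells had 4 libraries and 2 residual degrees of freedom. They were left out of the neutrophils only, and the monocytes were not filtered in this way. In this fit 18 genes were called, 12 with a more positive change in neutrophils (0.154%) and 6 with a more negative one (0.0772%) of 7776. Csf3 (log2 3.72, adjusted p = 0.00333), Cxcl3 (log2 4.39, adjusted p = 5.33e-05) and 2010005H15Rik (log2 8.25, adjusted p = 5.62e-06) were again among them, and Cxcl1 (log2 2.75, adjusted p = 0.0199), Selp, the adhesion receptor P-selectin (log2 5.48, adjusted p = 8.79e-06), Cd69 (log2 3.35, adjusted p = 0.0434) and the interferon-stimulated Ifit1 (log2 3.20, adjusted p = 0.0434) were added. In monocytes Cxcl1, Selp and Cd69 were highest in the library labelled SARAWT PBS 3, at 1455, 50.6 and 74.4 CPM. The part of that library in the calls of these genes was not tested. The others called with a more positive change in neutrophils were genes of muscle (Tnnc2, Des, Xirp2, Mylpf and Acta1). Cells with RNA of muscle were not left out on that account, and its part in these calls was not tested. The 6 with a more negative change included the stromal genes Dcn (log2 -4.99, adjusted p = 0.00333), Thbs2 (log2 -5.57, adjusted p = 0.0173) and Fstl1 (log2 -6.14, adjusted p = 0.0479). Il1a had an interaction of 2.32 (adjusted p = 0.256), so that 0 of 16 cytokine genes, 2 of 11 chemokine genes and 1 of 22 interferon-stimulated genes were called. Without the library labelled SARAWT PBS 3 the full set of cells gave 10 calls, of which 1 was among the 48, and none of these 10 stromal genes passed. DESeq2 called 6 genes, and 7 of the 12 genes with the largest changes named here did not pass in it.

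Skin neutrophils carried more of the inhibitors and targets of NF-kappa B, of chemokines and of pattern recognition receptors than kidney neutrophils chosen by the same rule. Of 4178 genes tested over 16 libraries, 2314 passed an adjusted p of 0.05 in edgeR (55.4%), 988 higher in skin (23.6%) and 1326 lower (31.7%). The median log2 fold change of all genes was -0.18. In untreated libraries labelled SARAWT alone, whose skin arm was the 2 PBS libraries that go against that label, 1710 of 8167 genes passed, 695 of them higher. Neutrophils had a median of 0.283% to 0.708% of UMIs from mt- genes in the skin libraries and 2.37% to 8.17% in the kidney libraries, without overlap, and the part of this difference in the results was not tested. Tissue cannot be told apart from the experiment it came from or from the Cell Ranger version, and the comparison was added after the data were seen. For many genes the other cells of the libraries differed the same way. Their values are given beside the neutrophils for Nfkbia, Tnfaip3, Nlrp3 and Hspa1a, and in kidney for Miox. For the other genes compared between tissues they are not given, and those differences are not shown to be particular to neutrophils. The kidney library labelled SARAWT AA 1 held 497 CPM of Zfyve9 in neutrophils and SARATg AA 1 44.1 CPM, against their labels.

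Nfkbia, the inhibitor that NF-kappa B induces against itself, ranged from 2419 to 7879.6 CPM with a median of 4331 CPM in skin and 175 to 1808 CPM with a median of 333 CPM in kidney. The groups did not overlap, and the log2 fold change was 2.97 (SE 0.47, adjusted p = 2.24e-05). The other cells had medians of 1197 CPM in skin and 148 CPM in kidney. Tnfaip3 ranged from 255 to 879 CPM with a median of 704 CPM in skin and 8.81 to 68.0 CPM with a median of 25.4 CPM in kidney, again without overlap, with a log2 fold change of 4.85 (SE 0.42, adjusted p = 3.01e-08) and other cells at 359.6 and 19.9 CPM. Of 15 NF-kappa B feedback genes 14 were called higher in skin (median 2.84), among them Gadd45b (log2 4.33, adjusted p = 2.70e-07), Nfkbiz (log2 2.85, adjusted p = 9.22e-07), Rel (log2 2.87, adjusted p = 1.78e-07) and Ier3 (log2 2.84, adjusted p = 1.77e-05). The exception was Tnfaip2 (log2 0.55, adjusted p = 0.165).

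Nlrp3 ranged from 731 to 2549.7 CPM with a median of 2069 CPM in skin and 45.2 to 165 CPM with a median of 88.1 CPM in kidney, with other cells at 133 and 5.80 CPM and a log2 fold change of 4.32 (SE 0.33, adjusted p = 6.68e-09). Of 11 pattern recognition and inflammasome genes 9 were called higher (median 2.22), with Clec4d at 3.79 (adjusted p = 1.15e-08), Trem1 at 3.28 (adjusted p = 7.17e-07) and Cd14 at 3.1 (adjusted p = 6.09e-04). Cxcl2 ranged from 2832 to 27324 CPM with a median of 11959.9 CPM in skin and 106 to 1925 CPM with a median of 666 CPM in kidney. The lowest skin library was above the highest kidney library, and the log2 fold change was 4.27 (SE 0.54, adjusted p = 2.06e-06). Of 10 chemokine genes 5 were called higher (median 1.83): Cxcl1, Cxcl2, Ccl3, Ccl4 and Cxcl10. Of 8 cytokine genes 6 were higher (median 1.28), with Tnf at 4.59 (adjusted p = 8.47e-07), Il1rn, the interleukin-1 receptor antagonist, at 2.86 (adjusted p = 1.76e-04), Vegfa at 2.16 (adjusted p = 4.64e-04) and Il1b at 1.55 (adjusted p = 7.81e-05).

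Several secondary granule genes were called lower in skin. Camp, the cathelicidin, ranged from 0 to 55.4 CPM with a median of 5.33 CPM in skin and 0 to 5640.3 CPM with a median of 1417 CPM in kidney. The groups overlapped, since several kidney libraries also held little or none, and the log2 fold change was -7.74 (SE 1.48, adjusted p = 1.77e-04). Ltf (log2 -5.41, adjusted p = 0.00139), Ngp (log2 -3.70, adjusted p = 0.0357), Chil3 (log2 -2.62, adjusted p = 0.00514), Mmp8 (log2 -1.88, adjusted p = 0.00871), Lyz2 (log2 -1.82, adjusted p = 6.52e-04) and Padi4 (log2 -1.74, adjusted p = 0.00582), which citrullinates histones, were also called lower in skin. Arg2, arginase 2, was called higher (log2 2.60, adjusted p = 1.59e-07), so that 7 of 17 secondary and tertiary granule genes were lower and 1 higher (median -1.06), against 31.7% of all genes called lower. In untreated libraries labelled SARAWT alone 2 of the 17 were lower and 1 higher, where 1015 of 8167 genes were lower. Without cells of any other lineage 8 were lower and 3 higher (median -1.25), against 36.7% of all genes lower.

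Genes of the TGF-beta pathway were among those higher in skin, 6 of 10 being called (median 1.26), against 23.6% of all genes called higher, and 5 of 13 in untreated libraries labelled SARAWT alone, where 695 of 8167 genes were higher. Tgif1, a transcriptional repressor in this pathway, ranged from 388 to 1247 CPM with a median of 727 CPM in skin and 6.82 to 68.0 CPM with a median of 15 CPM in kidney. Thbs1 ranged from 340.4 to 1774 CPM with a median of 1388 CPM in skin and 8.59 to 81.8 CPM with a median of 29.4 CPM in kidney. Neither overlapped between tissues, with log2 fold changes of 5.42 (adjusted p = 2.78e-09) and 5.26 (adjusted p = 8.25e-08). Skil (log2 2.26, adjusted p = 3.58e-07), Smad7, which inhibits the receptor (log2 1.5, adjusted p = 5.47e-05), Ski (log2 1.01, adjusted p = 5.27e-04) and Tgfbr1 (log2 1.02, adjusted p = 0.00383) were smaller changes, and Tgfbr2 stood at 0.01 (adjusted p = 0.969) and Tgfb1 at 0.67 (adjusted p = 0.157). Without cells of any other lineage 8 of the 10 were called higher (median 1.91), with Tgfb1 at 1.74 (adjusted p = 4.66e-05). The list also holds Zfyve9, the gene of the transgene, whose level went against the labels of some skin and kidney libraries.

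Genes were named here among those called with a mean of at least 10 CPM, no overlap between the tissues and a neutrophil level above the other cells of the tissue where they were higher, so these are a description. By this rule the 10 largest changes toward skin were those of Lsmem1, Tnfaip6, Gla, Cxcl1, Maff, Vps37b, Tgif1, Chac1, Thbs1 and Hcar2. Lsmem1 ranged from 129 to 794 CPM with a median of 206 CPM in skin and had no UMI in any of the 9 kidney libraries, at least 678-fold higher against a floor of 3 counts over the group. Gla, the lysosomal alpha-galactosidase, ranged from 333 to 1218 CPM with a median of 569 CPM in skin and 4.44 to 19.4 CPM with a median of 8.38 CPM in kidney (log2 6.33, adjusted p = 1.76e-10). Hcar2 ranged from 826 to 2976 CPM with a median of 1663 CPM in skin and 14.3 to 204 CPM with a median of 35.5 CPM in kidney (log2 5.24, adjusted p = 4.79e-08). Tnfaip6 (log2 6.88, adjusted p = 9.53e-10), Cxcl1 (log2 6.30, adjusted p = 9.05e-06), Maff (log2 5.81, adjusted p = 1.01e-07), Vps37b (log2 5.61, adjusted p = 2.78e-09) and Chac1 (log2 5.30, adjusted p = 1.06e-07), which degrades glutathione, completed the list. Nr4a3 (log2 7.77, adjusted p = 2.78e-09) and Col1a1 (log2 7.51, adjusted p = 1.36e-06) had larger changes than some of these but were not above the other skin cells. By the same rule the 10 largest toward kidney were Miox, Tmem27, Slc13a1, Glyat, Fut9, Slc34a1, Slc17a3, Gpx3, Ldhd and Slc4a4, genes of the kidney tubule, while Kap (log2 -15.70, adjusted p = 8.85e-05) had a larger change and overlapped between the tissues. Miox ranged from 9.72 to 2869.9 CPM with a median of 872 CPM in kidney neutrophils and 122 to 3937 CPM in the other kidney cells, and had no UMI in skin neutrophils, at least 2133-fold lower. Slc34a1, a phosphate transporter, had a log2 fold change of -10.23 (adjusted p = 1.93e-07), Gpx3 of -7.90 (adjusted p = 3.22e-07), Ldhd of -7.09 (adjusted p = 1.83e-07) and Slc4a4 of -7.05 (adjusted p = 4.86e-07). Tmem27, Slc13a1, Glyat, Fut9 and Slc17a3 had no UMI in skin neutrophils and were at least 924, 636, 683, 456 and 287-fold lower. The part of RNA from tubule cells in the kidney values was not tested, and no cells were left out by tubule markers.

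The remaining lists are given by their calls, with log2 fold changes of called genes in parentheses, and stand beside 23.6% of all genes called higher and 31.7% lower. Chemotaxis and adhesion receptors had 9 of 16 higher and 2 lower (Ptafr 4.05, Icam1 4.32 and Cxcr4 2.69 higher, Ccr2 and Itga4 lower, the latter at 0.09 without cells of any other lineage). Genes of tissue and tumour neutrophils had 10 of 13 higher and 1 lower (Hmox1, heme oxygenase, 3.75, and Cd274, the ligand of PD-1, 3.05). Transcription factors had 11 of 16 higher and 1 lower and survival and apoptosis genes 7 of 15 and 1 (the pro-apoptotic Bcl2l11 3.83 and the death receptor Fas 3.18). Hypoxia and glycolysis genes had 7 of 16 higher and 1 lower and interferon-stimulated genes 7 of 13 and 1, which were 6 of 19 and 3 of 19 higher in untreated libraries labelled SARAWT alone. P53 targets had 5 of 8 higher and 2 lower (Cdkn1a 3.33), receptors of IL-1, TNF and CSF 5 of 12 and 2, and NADPH oxidase and killing 4 of 9 and 2 (Cybb -1.85). Primary granule genes had 2 of 3 higher and 0 lower, leukotriene and prostaglandin genes 2 of 4 and 1 (Ptgs2 2.85, Alox5 -1.54), and MHC genes 1 of 11 and 0 (median 0.31), or 6 of 9 (median 1.25) without cells of any other lineage, with B2m at 1.83, H2-K1 at 1.26, H2-Aa at 2.08 and H2-Eb1 at 2.47. Neither of the 2 sex-linked genes tested was called. Genes known to respond to tissue dissociation were higher as well, 13 of 18 and 2 lower (median 1.31, Atf3 4.43, Hspa1a 4.23), with Hspa1a in the other cells at medians of 534 CPM in skin and 13.1 CPM in kidney, and the part of dissociation in these results was not tested. With RLE size factors the split moved to 774 higher and 1770 lower, against 988 and 1326, as the median of all genes moved to -0.47. The NF-kappa B feedback list had 12 or 13 genes called higher under each of the 6 other settings in which it was counted, 13 of 14 without cells of any other lineage among them. Without those cells 1045 of 3684 genes were called higher (28.4%) and 1353 lower (36.7%).

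**Figure D4:**
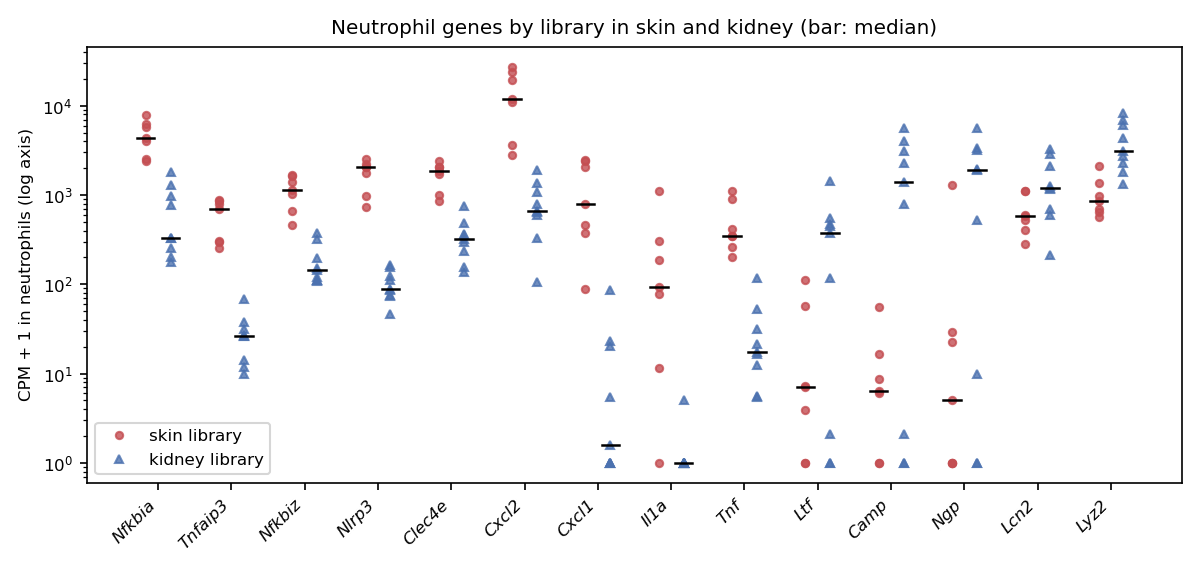
Level in neutrophils of 14 genes in the 7 skin libraries with at least 10 neutrophils (circles) and the 9 kidney libraries (triangles), as CPM + 1 on a log axis; bars mark medians. Nfkbia, Tnfaip3, Nfkbiz, Nlrp3, Clec4e, Cxcl2, Cxcl1, Il1a and Tnf are higher in skin in the median (Nlrp3 2069 against 88.1 CPM) and Ltf, Camp, Ngp, Lcn2 and Lyz2 are lower (Camp 5.33 against 1417 CPM).

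Skin neutrophils also varied among themselves. NF-kappa B feedback and chemokine genes stood at one end of the first principal component once cells with markers of another lineage were left out and depth was made equal, steps not tested apart. Before that, over all 1695 neutrophils of the libraries used, the component was led by Srgn, Clec4d, Fth1 and Ftl1 at one end and Rpsa, S100a10 and S100a4 at the other, and its score had a Pearson r with the log of a cell's UMIs of -0.82 to -0.74 within libraries, against -0.04 to 0.32 in what follows, a form chosen after seeing the data (correlations across cells, which are not replicates). In the 4 libraries with at least 50 neutrophils, cells without markers of another lineage were thinned to 1500 UMIs each, which left 1341 cells and 1044 genes, and the first principal component was taken with the library means removed. It held 2.48% of the variance and the second 1.18%. One end was led by Nfkbia, Cxcl2, Icam1, Tnfaip3, Marcksl1, Nlrp3, Nfkbiz, Clec4e, Cxcl1 and Acod1. The other was led by Actg1, Tyrobp, Msrb1, S100a11, Fxyd5, Actb, Tmsb4x, Zfp36l2, Stk17b and Sh2d3c, with cytoskeletal genes (Actb, Actg1, Tmsb4x) among them. The component fitted within each library had a cosine with the pooled one of 0.76 in the library labelled SARAWT PBS 3, 0.62 in SARAWT bleomycin 1, 0.98 in SARAWT bleomycin 3, which gave 709 of the cells, and 0.79 in SARATg bleomycin 1. All 20 genes had the same sign in all 4, as had 436 of all 1044 genes. The 20 were chosen by their pooled loading in the same libraries, so their shared sign is a description.

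Between the 25% of cells with the lowest scores and the 25% with the highest, the share of cells with an Nfkbia UMI went from 60.0% to 100% in the library labelled SARAWT PBS 3, from 30.8% to 100% in SARAWT bleomycin 1, from 46.1% to 100% in SARAWT bleomycin 3 and from 43.7% to 89.7% in SARATg bleomycin 1. For Icam1, an adhesion molecule, the share went from 5.00% to 46.7% in the library labelled SARAWT PBS 3, from 7.69% to 61.5% in SARAWT bleomycin 1, from 5.06% to 80.9% in SARAWT bleomycin 3 and from 2.30% to 58.6% in SARATg bleomycin 1. For Cxcl1 it went from 3.33% to 35.0% in the library labelled SARAWT PBS 3, from 0% to 69.2% in SARAWT bleomycin 1, from 6.18% to 66.9% in SARAWT bleomycin 3 and from 3.45% to 37.9% in SARATg bleomycin 1. These genes placed the cells on the component, so the shares are a description. By list, 12 of 13 NF-kappa B feedback genes had a positive loading (10 in all 4 libraries), as had 7 of 7 cytokine genes and 4 of 5 chemokine genes, while 322 of all 1044 genes (30.8%) were positive. Most genes thus had a negative loading, and the secondary and tertiary granule genes, with 8 of 10 negative (4 in all 4 libraries), stood near the share of all genes. Hypoxia and glycolysis genes had 9 of 10 negative and receptors of IL-1, TNF and CSF 7 of 8.

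At 1500 UMIs a cell, Il1b was found in 98.7% of cells in the library labelled SARAWT PBS 3, 100% in SARAWT bleomycin 1, 97.2% in SARAWT bleomycin 3 and 98.6% in SARATg bleomycin 1, against 33.2% to 43.8% of the other cells of these libraries. Cxcl1 was found in 14.8% of cells in the library labelled SARAWT PBS 3, 38.8% in SARAWT bleomycin 1, 29.9% in SARAWT bleomycin 3 and 12.4% in SARATg bleomycin 1. In the other cells, thinned the same way, Cxcl1 was found in 22.6% of cells in the library labelled SARAWT PBS 3, 18.2% in SARAWT bleomycin 1, 19.6% in SARAWT bleomycin 3 and 18.6% in SARATg bleomycin 1, so that only in SARAWT bleomycin 1 and 3 did the share of neutrophils exceed theirs. Il1a was found in 5.06% of cells in the library labelled SARAWT PBS 3, 16.3% in SARAWT bleomycin 1, 10.6% in SARAWT bleomycin 3 and 2.02% in SARATg bleomycin 1, and in the other cells in 1.0% of cells in the library labelled SARAWT PBS 3, 1.2% in SARAWT bleomycin 1, 4.40% in SARAWT bleomycin 3 and 1.2% in SARATg bleomycin 1. Before thinning the shares for Il1a were 5.49% of cells in the library labelled SARAWT PBS 3, 20.4% in SARAWT bleomycin 1, 12.1% in SARAWT bleomycin 3 and 2.60% in SARATg bleomycin 1.

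**Figure D5:**
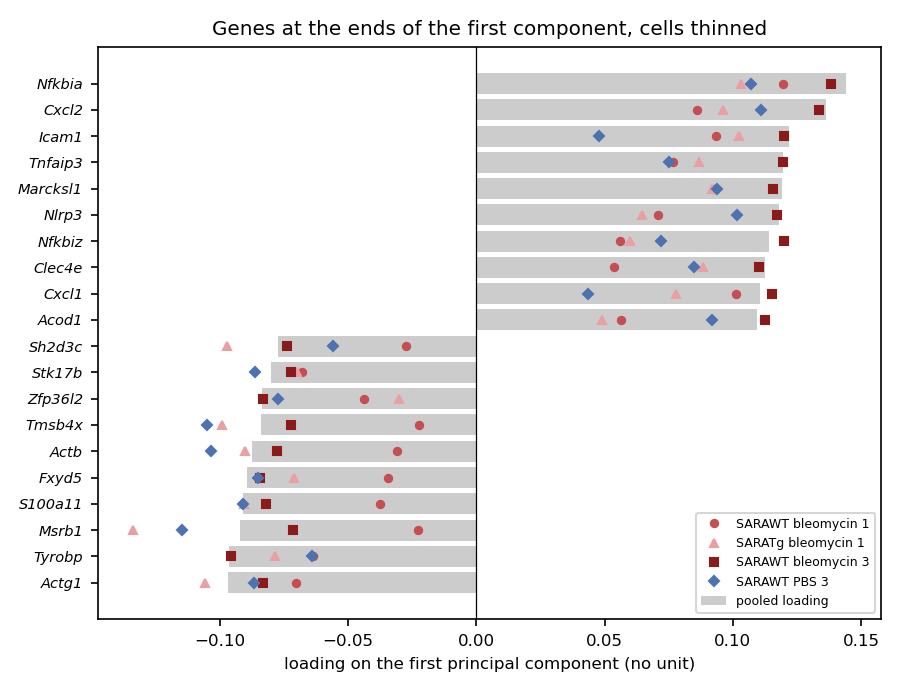
Loadings of the 10 genes at each end of the first principal component of skin neutrophils thinned to 1500 UMIs; grey bars are the pooled component and points the component fitted within each of the 4 libraries. All 20 genes, chosen by their pooled loading, keep their sign in the 4 libraries, as do 436 of all 1044 genes. Nfkbia and Cxcl2 lead one end and Actg1 and Tyrobp the other.

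The sequences upstream of 4 of these genes are shown as a description: Cxcl1, Cxcl2 and Nfkbia, which were higher in skin, and Camp, which was lower. Each is the stretch of 250 bases that ends just before the annotated start, from RefSeq on GRCm38.p6, written 5′ to 3′ on the gene's strand. Capitals mark stretches that match the 10-base NF-kappa B consensus on either strand, overlapping matches being merged.
Cxcl1, chr5:90890995-90891244, plus strand: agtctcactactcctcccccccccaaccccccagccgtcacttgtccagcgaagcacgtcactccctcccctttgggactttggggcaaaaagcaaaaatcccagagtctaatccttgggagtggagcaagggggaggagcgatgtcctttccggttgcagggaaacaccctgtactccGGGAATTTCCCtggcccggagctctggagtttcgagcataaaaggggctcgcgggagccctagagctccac
Cxcl2, chr5:90903649-90903898, plus strand: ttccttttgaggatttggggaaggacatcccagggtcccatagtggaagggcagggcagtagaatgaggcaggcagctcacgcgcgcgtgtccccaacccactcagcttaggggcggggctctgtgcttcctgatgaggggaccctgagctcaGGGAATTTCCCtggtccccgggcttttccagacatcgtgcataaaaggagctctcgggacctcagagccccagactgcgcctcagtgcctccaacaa
Nfkbia, chr12:55492648-55492897, minus strand: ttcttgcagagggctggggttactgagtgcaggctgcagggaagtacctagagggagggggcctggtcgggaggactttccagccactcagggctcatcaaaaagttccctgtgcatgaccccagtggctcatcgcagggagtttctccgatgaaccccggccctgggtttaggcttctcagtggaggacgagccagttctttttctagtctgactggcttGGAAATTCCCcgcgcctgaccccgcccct
Camp, chr9:109849457-109849706, minus strand: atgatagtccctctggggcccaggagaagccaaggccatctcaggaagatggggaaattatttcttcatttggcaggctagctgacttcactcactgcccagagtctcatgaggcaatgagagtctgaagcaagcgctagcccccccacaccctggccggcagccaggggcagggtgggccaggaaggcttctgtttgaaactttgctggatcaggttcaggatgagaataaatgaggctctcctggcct

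The match began 71 bases before the start in Cxcl1, 97 bases in Cxcl2 and 29 bases in Nfkbia, and Camp held none. The same motif was found upstream of 8 of 12 NF-kappa B feedback genes with a sequence in the table (66.7%), 5 of 7 chemokine genes (71.4%), 4 of 11 cytokine genes (36.4%), 3 of 12 pattern recognition genes (25%) and 2 of 13 secondary and tertiary granule genes (15.4%). Of all 27025 genes with such a sequence 8.23% held it, and of all 32851 promoters 7.25%. A match is a description of the letters and says nothing of binding in these cells.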

How the data were processed

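Cells of skin and kidney were measured by 10x 3′ single-cell RNA-seq in 8 and 9 libraries. The authors deposited filtered matrices of UMI counts per gene and barcode, aligned to mm10 per the labels, whose processing notes name Cell Ranger 3.0.2 and Seurat 2.3.4. The file headers give Cell Ranger 4.0.0 for 4 skin libraries (32286 features), 3.1.0 for the other 4 and 3.0.2 for kidney (31053 features each). Genes were joined on the 30406 identifiers that both lists share, and no correction for free RNA was made. Intervals and floors cover counting error only.

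Kept cells had at least 200 genes and at most 20% of UMIs from mt- genes. UMIs were summed over the neutrophils of each library with at least 10 of them and tested with edgeR 4.0.16 in R 4.3.3 (TMM, filterByExpr, quasi-likelihood F test, Benjamini-Hochberg adjusted p threshold of 0.05), with scripts tested on simulated data. Genes under the threshold are written as called. Bleomycin against PBS used SARAWT libraries, SARATg against SARAWT used all skin libraries with the gene list as a term, and neutrophils against monocytes used an interaction with the library as a block. Shares of cells were compared by an exact permutation test over libraries. Alternatives were DESeq2 1.42.0, RLE size factors, no filter on low counts, other filters on cells and thresholds of the rule, other sets of libraries and covariates, a replicate block and leaving out each library. Scrublet in scanpy 1.11.5 marked 95 skin neutrophils, which were kept and were left out as an alternative.

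Named genes were Zfyve9 and the human entry, the 15 most abundant genes, up to 5 most abundant and all called members of each of 20 lists, up to 12 genes at each end of the first principal component, and, per test, up to 10 called genes per direction with the largest fold change, a mean of at least 10 CPM and no overlap between groups (between skin and kidney also a level in neutrophils above that of the other cells of the tissue where the gene was higher, a condition added after seeing the data), or the 10 with the lowest p where fewer than 5 passed. Some genes that this rule chose are not reported here. The cells and lists were chosen with earlier results of these data known. The skin and kidney comparison, and each result without cells of any other lineage, were added after seeing the data, and genes named from the latter were chosen after their values were seen. Replicate numbers were not taken to pair the libraries, since the labels tie them to no animal or batch. With 2 PBS libraries in the fit, deviations from the group mean mirror each other, so their correlations cannot show whether the numbers pair.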

Additional observations from a re-analysis of the deposited data

Results flagged for a closer look

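The difference between bleomycin and PBS libraries was itself different between neutrophils and monocytes, by a test of the interaction, for 48 genes. Both PBS libraries of this fit go against their label, so treatment and ZFYVE9 signal cannot be told apart. Of the 48, 10 were called without cells of another lineage and 1 without the library labelled SARAWT PBS 3, and DESeq2 called 6 genes in all. On the log2 scale the difference was 9.25 for 2010005H15Rik and 4.06 for Csf3, and -8.17 for Gas1, -7.88 for Igfbp5, -7.84 for Dcn, -7.67 for Lum, -6.50 for Dpt, -6.43 for Plpp3, -6.43 for Thbs2, -6.36 for Prrx1, -6.17 for Ctsk and -5.68 for Fbn1. Without the library labelled SARAWT PBS 3, 10 of these 12 genes no longer passed the threshold and the other 2, Lum and Plpp3, changed sign, and Igfbp5 changed sign (2.26) without cells of another lineage.

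Human ZFYVE9 UMIs, which no comparison across genes used, were found in neutrophils of 4 libraries labelled SARAWT: 277 in SARAWT PBS 1, 11 in SARAWT PBS 2, 74 in SARAWT bleomycin 1 and 11 in SARAWT bleomycin 2.

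Single libraries stood apart from their tissue for named genes in 10 of 33 groups of libraries tested, where chance gives about 1 in 20. Most of these values were near or under the floor of 3 counts, 55.4 CPM in the library labelled SARAWT PBS 1, 1.26 CPM in SARATg bleomycin 1 and 29.2 CPM in kidney SARAWT AA 3, so they rest on a few molecules at most. Among skin neutrophils Tnfaip6 was lowest, at 36.9 CPM, in the library labelled SARAWT PBS 1, and Slc34a1 was highest, at 1.69 CPM, in SARATg bleomycin 1. Among kidney neutrophils the library labelled SARAWT AA 3, with 14 neutrophils, was highest for Tnfaip6 at 9.72 CPM and lowest for tubule genes, with 9.72 CPM each for Miox, Tmem27, Glyat, Slc17a3 and Slc4a4, 19.4 CPM for Slc13a1 and 136 CPM for Gpx3, the one value well above its floor.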

How the results depend on the processing

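The difference in neutrophil share (bleomycin minus PBS, SARAWT) ranged from -1.04 to 5.30 percentage points with 1 library left out and was below 0 without SARAWT bleomycin 3. A replicate block on the shared numbers gave an exact permutation p of 0.5 for the share. For bleomycin against PBS, where 0 genes were called, no filter on low counts gave 128, the replicate block 31, all 8 libraries 2, the longer gene list alone 30, the fit of all libraries without cells of another lineage 20, and leaving out 1 library 0 to 81 (the library labelled SARAWT PBS 1). For SARATg against SARAWT after bleomycin, where 89 were called, DESeq2 gave 48, no filter 352, the replicate block 176, the cells without another lineage 17, and leaving out 1 library 11 (SARAWT bleomycin 3) to 314 (the library labelled SARAWT PBS 1), with 195 and 191 without SARAWT bleomycin 1 and 2. Calls higher in SARATg made up 83.1% of the 89, 9.09% without SARAWT bleomycin 3 and 29.4% without cells of another lineage. For neutrophils against monocytes, where 48 were called, DESeq2 gave 6, no filter 90, cells without another lineage 18, and leaving out 1 library 10 (the library labelled SARAWT PBS 3) to 68, with 31 without SARAWT bleomycin 2. The sign changed for Lum (0.89, against -13.5 at the other end with 1 library left out) and Plpp3 (1.64, against -10.84) without the library labelled SARAWT PBS 3, and for Igfbp5 (2.26) without cells of another lineage. For skin against kidney, where 2314 were called, no filter gave 6593, the shorter gene list 4045, only genes above the other cells 1252, and leaving out 1 library 1984 to 2613. For these counts the cause was not tested. Of the other values of named genes, 909 kept direction and side of the threshold, 22 came to pass it and 85 no longer passed it. The replicate blocks left 1 residual degree of freedom in the first and second of these gene tests, each SARATg group was 1 library assumed to vary like SARAWT, and 5 of the 8 skin libraries held 7 to 58 neutrophils, which limits the depth behind their values.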
